A study of Mus musculus with 32 samples.

Results

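The promoter regions of 6 genes that direct the first lineage choices of the embryo were examined in J1 mouse embryonic stem (ES) cells, in all 26 deposited peak lists of the series. The genes were T (gene 20997), Eomes (13813), Sox17 (20671), Gata6 (14465), Foxa2 (15376) and Cdx2 (12591). Each was represented by a window of the mouse genome build mm9: chromosome 17 from 8618000 to 8640000 for T, chromosome 9 from 118378000 to 118400000 for Eomes, chromosome 1 from 4475000 to 4495000 for Sox17, chromosome 18 from 11045000 to 11090000 for Gata6, chromosome 2 from 147860000 to 147880000 for Foxa2 and chromosome 5 from 148105000 to 148125000 for Cdx2. Every listed peak with at least 1 bp in a window was taken, which gave 47 of the 387563 peaks of the series. H3K4me3 accounted for 33 of them, total RNA polymerase II for 8, and its forms phosphorylated at serine 5 or serine 2 for 2 and 4.

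The series compared wild-type J1 cells with Taf5l-KO and Taf6l-KO cells by chromatin immunoprecipitation and sequencing of 7 targets, with 1 library per antibody and genotype. All cells were grown in medium with serum and leukaemia inhibitory factor (LIF). TAF5L and TAF6L are subunits of SAGA-type coactivator complexes, which acetylate histone H3. A further 5 lists came from streptavidin pull-downs of cells with Flag-Biotin (FB) tagged TAF5L (lines A5 and A6) or TAF6L (lines 15 and 9), in 2 lines each, and from BirA cells, where BirA is the biotin ligase that serves as the control. The labels used here do not say how the knockouts were made or how many clones they stand for, and peak lists hold no expression values against which the cell type could be checked. Without replicates of the 7 targets no test between genotypes was possible, so every comparison below sets single libraries side by side. The 21 libraries held 1702363 to 22968606 unique tags, and the 5 others 18292747 to 27775010. The peak caller scaled the larger of ChIP and input down to the smaller, which left between 1702363 (RNAP-ser5 in Taf6l-KO) and 7771755 tags per library of the 7 targets.

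T (Brachyury) and Eomes are T-box factors of mesoderm and mesendoderm, and Eomes also acts in the trophoblast. Sox17, Gata6 and Foxa2 direct endoderm, Sox17 as an HMG-box factor, Gata6 as a zinc finger factor of the primitive endoderm, and Foxa2 as a forkhead factor that opens chromatin. Cdx2 is the homeobox factor of the trophectoderm. In ES cells such genes are known as bivalent: their CpG-rich promoters carry H3K4me3, a mark of promoters, together with H3K27me3 from Polycomb complexes, and are transcribed little or not at all. H3K9ac marks active promoters, serine 5 phosphorylation of the polymerase repeats marks initiation and serine 2 phosphorylation elongation. H3K27me3 was not analysed here.

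The sequence before the start of 4 of the 6 genes was held in the RefSeq promoter table used (T, Eomes, Foxa2 and Cdx2), in build GRCm38.p6. The 250 bases before the start are shown to let the CpG content of these promoters be seen, with every CpG in capitals. They lie at chr17:8434173-8434422 on the plus strand for T, chr9:118477939-118478188 on the plus strand for Eomes and chr5:147307250-147307499 on the minus strand for Cdx2. For Foxa2, with 3 annotated starts, the outermost at chr2:148046970-148047219 and the most CpG-rich at chr2:148045949-148046198 are given, both on the minus strand.
T: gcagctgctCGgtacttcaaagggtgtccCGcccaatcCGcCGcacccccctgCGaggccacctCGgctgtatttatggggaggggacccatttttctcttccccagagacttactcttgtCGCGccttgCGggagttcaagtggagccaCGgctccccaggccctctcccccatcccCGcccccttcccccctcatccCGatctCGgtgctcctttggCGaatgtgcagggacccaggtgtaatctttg
Eomes: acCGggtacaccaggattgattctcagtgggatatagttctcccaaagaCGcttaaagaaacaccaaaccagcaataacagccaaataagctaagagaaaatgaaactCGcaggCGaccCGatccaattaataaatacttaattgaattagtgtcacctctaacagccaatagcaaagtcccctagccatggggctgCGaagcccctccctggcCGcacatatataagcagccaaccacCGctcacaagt
Cdx2: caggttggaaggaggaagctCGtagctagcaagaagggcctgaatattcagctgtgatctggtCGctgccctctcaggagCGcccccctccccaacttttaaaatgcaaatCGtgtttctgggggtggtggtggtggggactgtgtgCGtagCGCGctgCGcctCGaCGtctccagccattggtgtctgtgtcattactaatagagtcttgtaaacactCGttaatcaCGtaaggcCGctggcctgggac
Foxa2, outermost start: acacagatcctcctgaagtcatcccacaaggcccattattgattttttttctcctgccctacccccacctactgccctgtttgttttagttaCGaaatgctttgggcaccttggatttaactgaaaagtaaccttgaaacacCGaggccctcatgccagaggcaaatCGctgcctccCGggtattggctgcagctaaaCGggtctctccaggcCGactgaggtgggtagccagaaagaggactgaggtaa
Foxa2, CpG-rich start: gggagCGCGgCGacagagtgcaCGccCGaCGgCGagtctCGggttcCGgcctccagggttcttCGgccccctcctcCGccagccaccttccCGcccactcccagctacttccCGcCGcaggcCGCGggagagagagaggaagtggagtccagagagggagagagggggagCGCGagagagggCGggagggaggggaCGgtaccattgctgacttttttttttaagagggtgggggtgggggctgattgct
T carried 14 CpG, Cdx2 13 and Eomes 8 in these 250 bases, against a median of 6 over 32841 promoters of the table. The Foxa2 starts ranged from 6 to 20, the latter above 82.0% of all promoters. The GC box GGGCGG, searched on both strands and itself holding a CpG, occurred 2 times before T and 2 times before the CpG-rich Foxa2 start, and was found in 32.7% of all promoters. CCAAT, on both strands, occurred 2 times before Eomes and 1 time each before T, Cdx2 and the outermost Foxa2 start (33.9% of promoters). TATAAA on either strand occurred in none of the 5 sequences shown (12.4% of promoters). The third Foxa2 start, whose sequence at chr2:148045465-148045714 is not shown, had 1 TATAAA and 1 GGGCGG. Peak positions are in mm9 and were not converted, so the distance from a peak to these starts was not determined. By gene order in the same table, Gata6os overlaps Gata6, Gm33408 overlaps Eomes and LOC115486424 overlaps T. Peaks of such neighbours within a window cannot be told apart from those of the named gene.

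H3K4me3 was the only target listed in all 6 windows, and it was listed there in each genotype. Wild-type cells had 11 H3K4me3 peaks in the windows, Taf5l-KO cells 13 and Taf6l-KO cells 9. Most were weak for this mark. Fold enrichment, which divides the ChIP pileup by a local background estimated from the input, ran from 3.44 to 8.58 in wild type, against a median of 5.57 over the whole wild-type list, while Taf6l-KO peaks ranged from 3.16 to 7.21 and Taf5l-KO peaks from 3.95 to 9.93. These are the authors' values and describe peaks within a list only. Peaks with a −log10 q of at least 5 were found in wild-type cells at Eomes and Sox17 alone, in Taf6l-KO likewise, and in Taf5l-KO at Eomes, Sox17, Gata6 and Cdx2. Whole-list medians of −log10 q were 5.66 in wild type, 7.26 in Taf5l-KO and 7.76 in Taf6l-KO, so most peaks of each list passed 5. The lists thus differ in this measure as a whole, and no gain at single genes is read from it.

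**Figure D1:**
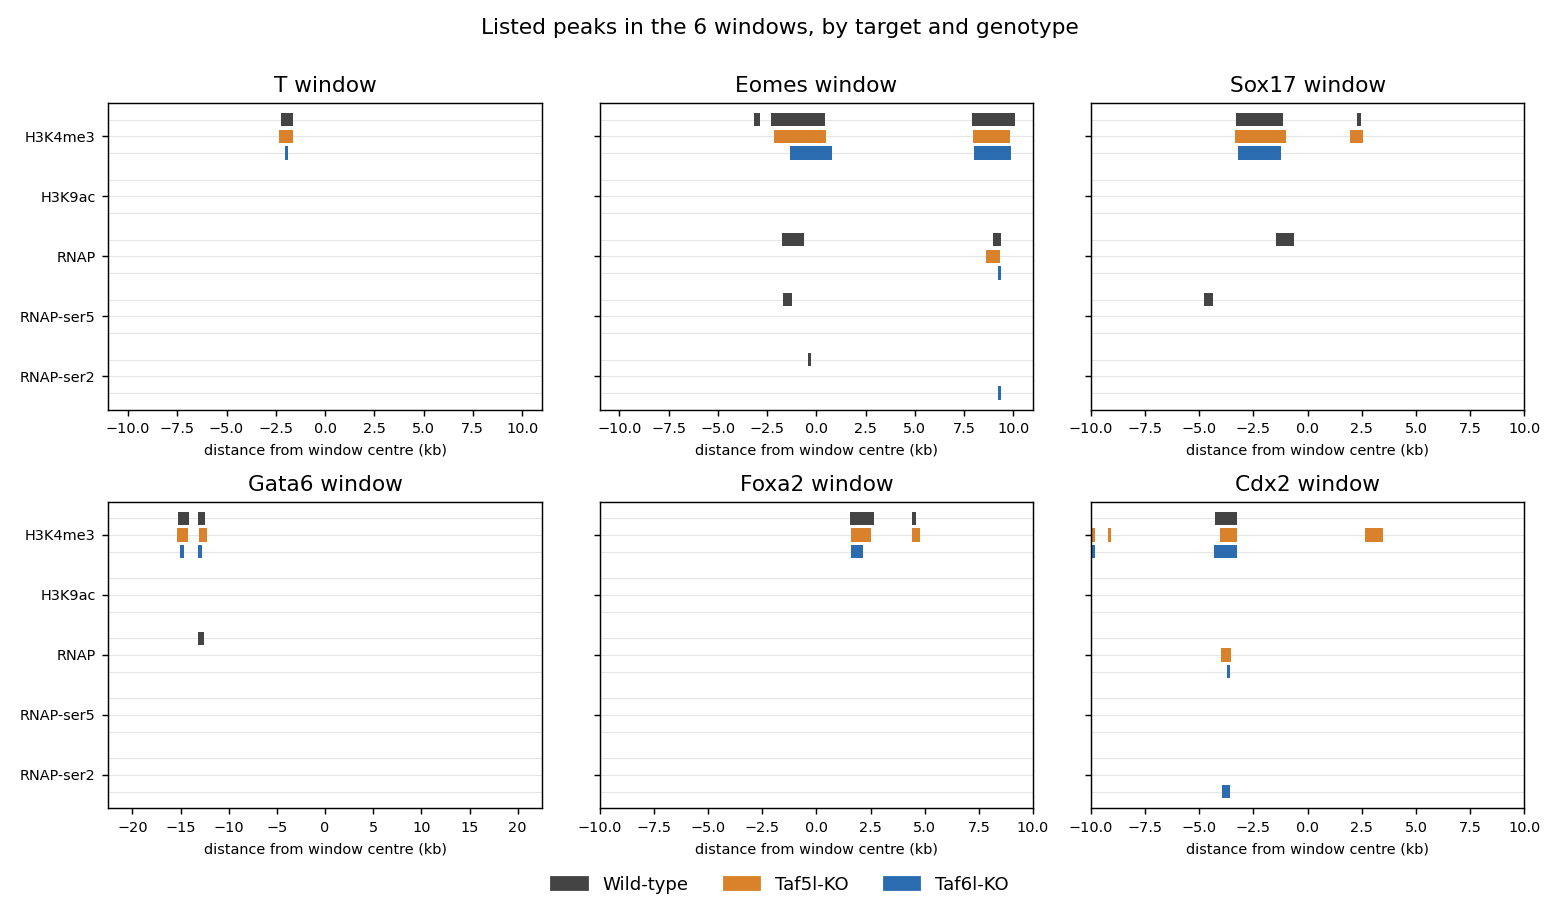
Listed peaks (bars, to scale) in each window for H3K4me3, H3K9ac and the 3 polymerase forms by genotype (wild type grey, Taf5l-KO orange, Taf6l-KO blue), against distance from the window centre in kb. H3K4me3 is present in every window and genotype, H3K9ac in none, and polymerase peaks are few.

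The windows differed widely from each other. Eomes had the widest H3K4me3 peak, 2760 bp in wild type (chromosome 9, 118386686 to 118389445), longer than 94.1% of the wild-type list, with a fold enrichment of 8.58. Sox17 followed with 2175 bp (chromosome 1, 4481685 to 4483859), longer than 88.5% of the list, and a fold enrichment of 6.47. These were the broad and comparatively strong members. The others were shorter and lay in the lower part of the list by strength. The widest wild-type peak was 1149 bp at Gata6 (chromosome 18, 11052214 to 11053362, fold enrichment 3.67), 1120 bp at Foxa2 (chromosome 2, 147871546 to 147872665, 4.10), 1029 bp at Cdx2 (chromosome 5, 148110714 to 148111742, 3.95) and 601 bp at T (chromosome 17, 8626785 to 8627385, 4.06). Between 14.0% (Gata6) and 26.2% (Foxa2) of the wild-type peaks had a lower fold enrichment than these 4.

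The H3K4me3 width was then compared by genotype as the sum of the listed peaks inside each window. Over the 6 windows it was 12359 bp in wild type, 13180 bp in Taf5l-KO and 8717 bp in Taf6l-KO, ratios to wild type of 1.07 and 0.705. Once neighbouring peaks within 1000 bp were joined, Taf5l-KO was below wild type instead (13781 against 13818 bp), so no direction is given for it. Over the whole lists these ratios were 0.951 and 0.842. In Taf6l-KO the length was below wild type in 5 of 6 windows, and in Taf5l-KO in 3 of 6. The depth to which the H3K4me3 libraries were scaled, that of each input, had the same order as the whole-list lengths. It was 7771755 tags in wild type, 6245652 in Taf5l-KO and 5923469 in Taf6l-KO. Before scaling these libraries held 15136528, 8886529 and 13041135 unique tags, in a different order. The part of depth in these lengths was not tested.

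At T, whose product is needed for mesoderm, H3K4me3 covered 601 bp in wild type, 710 bp in Taf5l-KO and 164 bp in Taf6l-KO. All 3 genotypes had a single peak at the same place, and that of Taf6l-KO was the shortest, with a fold enrichment of 3.63 and a −log10 q of 1.60. At Gata6 the lengths were, in the same order of genotypes, 1888, 1878 and 770 bp. The Gata6 signal came as a pair of neighbouring peaks in every genotype, and the Taf6l-KO pair (326 and 444 bp) was shorter than the wild-type pair (1149 and 739 bp) and the Taf5l-KO pair (1106 and 772 bp). At Foxa2 the lengths were 1270, 1216 and 524 bp. Wild-type and Taf5l-KO cells shared 2 Foxa2 peaks there, of which Taf6l-KO kept the larger, at 524 bp with the lowest fold enrichment of all H3K4me3 peaks in the windows (3.16, −log10 q 1.03). T, Gata6 and Foxa2 were thus the windows with the lowest Taf6l-KO to wild-type ratios, 0.273, 0.408 and 0.413.

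Eomes and Sox17 kept most of their width. At Eomes H3K4me3 covered 5220 bp in wild type, 4508 bp in Taf5l-KO and 4019 bp in Taf6l-KO, ratios of 0.864 and 0.770. It lay in 2 domains in each genotype, a main domain near the window centre and another at its right side (chromosome 9, 118396926 to 118399097 in wild type, 2172 bp). At Sox17 the lengths were 2351, 2959 and 1996 bp, ratios of 1.26 and 0.849. The main Sox17 peak measured 2175, 2332 and 1996 bp, and a small second peak of 176 bp in wild type and 627 bp in Taf5l-KO was not listed in Taf6l-KO.

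Cdx2 was the window in which both knockouts exceeded wild type. H3K4me3 covered 1029 bp in wild type, 1909 bp in Taf5l-KO and 1244 bp in Taf6l-KO. The Cdx2 peak listed in all 3 genotypes, called the main peak here, did not account for most of this: it measured 1029, 760 and 1060 bp. Which peak of a window lies nearest the gene start was not determined. The additional length came from 3 further Taf5l-KO peaks, the longest of 824 bp (chromosome 5, 148117657 to 148118480, fold enrichment 3.99), and from 1 further Taf6l-KO peak of 184 bp at the window's left edge. At that edge Taf5l-KO had a peak of 537 bp, 195 bp of it inside the window, and wild type none.

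**Figure D2:**
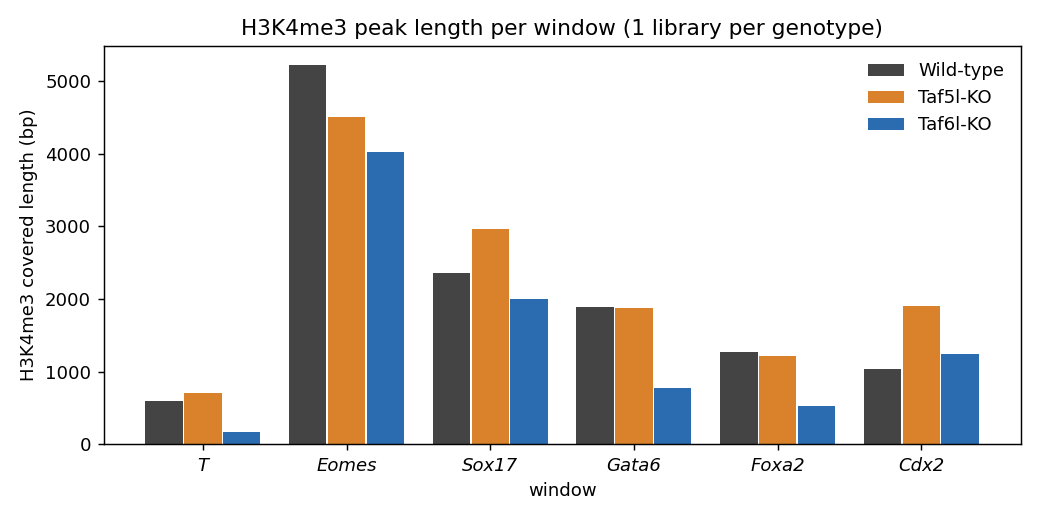
H3K4me3 covered length in bp (bars) in the 6 windows, with 1 library for each genotype. The Taf6l-KO bar is below wild type at T (164 against 601 bp), Eomes, Sox17, Gata6 and Foxa2, and above it at Cdx2 (1244 against 1029 bp).

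Peaks of the 3 genotypes were joined into domains when fewer than 1000 bp lay between them, to set the windows beside the rest of the genome. The windows held 9 such domains with a wild-type peak, of 150 to 3048 bp. In Taf6l-KO 8 of the 9 were narrower than in wild type, and 68.7% of all 31102 domains with a wild-type peak were. At least 1.5-fold narrower were 5 of 9, against 29.7% of all domains. Domains not listed in a knockout count as narrower, in the windows and over all domains. Among the 5 were the small domains of Sox17 (176 bp) and Foxa2 (150 bp), which had 0 bp in Taf6l-KO. The Taf6l-KO ratio had a median of 0.468 over the 9 and of 0.875 over all domains. With only domains of at least 500 bp in wild type, 6 of 7 were narrower (69.2% of the 19822 domains of 500 to 3048 bp) and 3 of 7 at least 1.5-fold (21.4%), with medians of 0.704 and 0.901. Those 3 were T, Gata6 and Foxa2. In Taf5l-KO 5 of 9 were narrower (57.2% of all domains), none by 1.5-fold (22.7%; of those of 500 to 3048 bp 56.3% were narrower and 15.2% by 1.5-fold), and 2 were at least 1.5-fold wider (8.46%), the small second peaks of Sox17 and Foxa2. Counts this small do not set the windows apart from other domains.

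**Figure D3:**
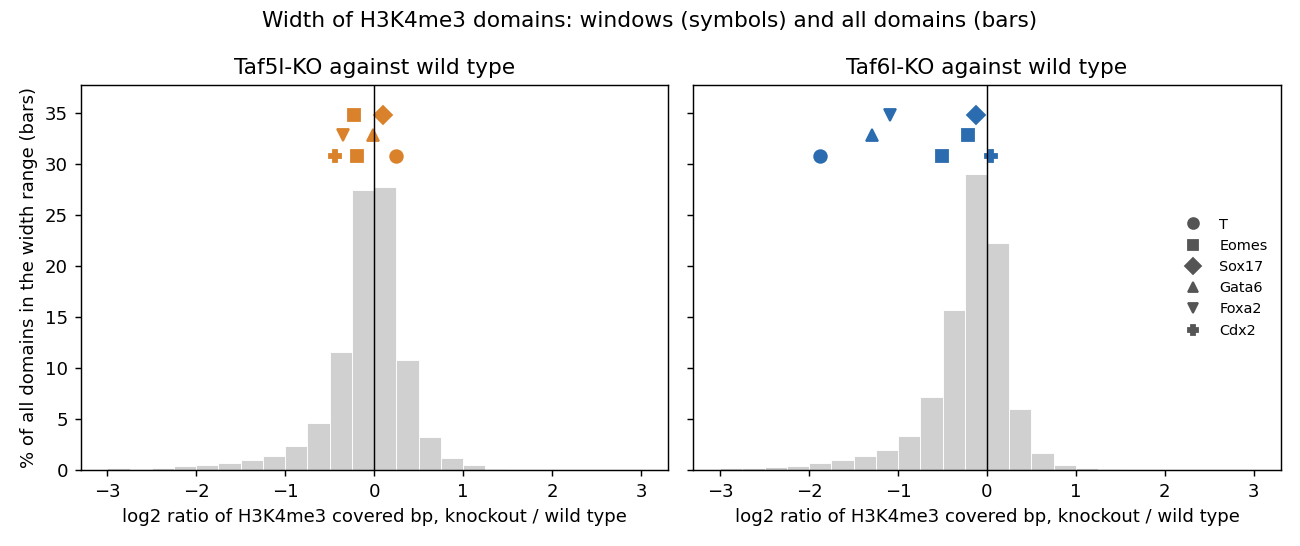
Ratio of H3K4me3 covered length, knockout to wild type, on a log2 axis, for the 7 domains of the windows with at least 500 bp in wild type (symbols by gene, Eomes with 2, height without meaning) and for the 19822 domains of 500 to 3048 bp (grey bars, % of domains, with domains not listed in the knockout left out). In Taf6l-KO the symbols of T, Gata6 and Foxa2 lie left of most bars, and in Taf5l-KO all 7 lie near 0.

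How many single wild-type H3K4me3 peaks were found again in Taf6l-KO depended on the overlap asked for. Of the 11 in the windows, a Taf5l-KO peak overlapped 10 and a Taf6l-KO peak 8 by at least 1 bp, where 15.4% and 19.2% of the whole wild-type list were not overlapped. At 1 bp, the peaks missing were no longer than 288 bp. A 288 bp peak beside the main Eomes peak was listed in neither knockout, and the 176 bp Sox17 peak and a 150 bp Foxa2 peak were missing in Taf6l-KO. When 50% of the wild-type peak had to be covered, 6 of the 11 were missing in Taf6l-KO and 1 in Taf5l-KO. The whole-list shares above are for 1 bp and give no background for these 50% counts. The wild-type peak of T and the widest peaks of Gata6 and Foxa2 then joined the missing, with 27.3%, 28.4% and 46.8% of their length covered in Taf6l-KO. In the other direction 3 of 13 Taf5l-KO peaks and 1 of 9 Taf6l-KO peaks, all at Cdx2, had no wild-type counterpart (14.2% and 10.5% of the whole lists).

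H3K9ac was not listed in any of the 6 windows in any genotype, so the lists hold no H3K9ac peak here to compare between genotypes. A weak signal may go unlisted. The whole H3K9ac lists held 4131 peaks in wild type, 110 in Taf5l-KO and 898 in Taf6l-KO. Absence from the short knockout lists says little about the genes. The nearest wild-type H3K9ac peak was 259 kb (T) to 618.4 kb (Foxa2) from the window. Such absence was common for H3K4me3 of this kind. Of the wild-type H3K4me3 domains 601 to 3048 bp long, the range of the widest domain of each window, 16.5% overlapped an H3K9ac peak, and of those at least 2000 bp long 47.1% did. At the strength of T, Gata6, Foxa2 and Cdx2 the share was lower still: 0.708% of wild-type H3K4me3 peaks with fold enrichments of 3 to 4 and 1.1% of those from 4 to 5 overlapped H3K9ac. For Sox17 the corresponding class (5 to 7) had 2.41%, and for Eomes (7 to 10) 19%. In the knockouts, H3K9ac was listed at 2.01% (Taf5l-KO) and 16% (Taf6l-KO) of H3K4me3 domains of at least 2000 bp, and at 0.293% and 1.65% of those in the length range of the windows' widest domains.

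**Figure D4:**
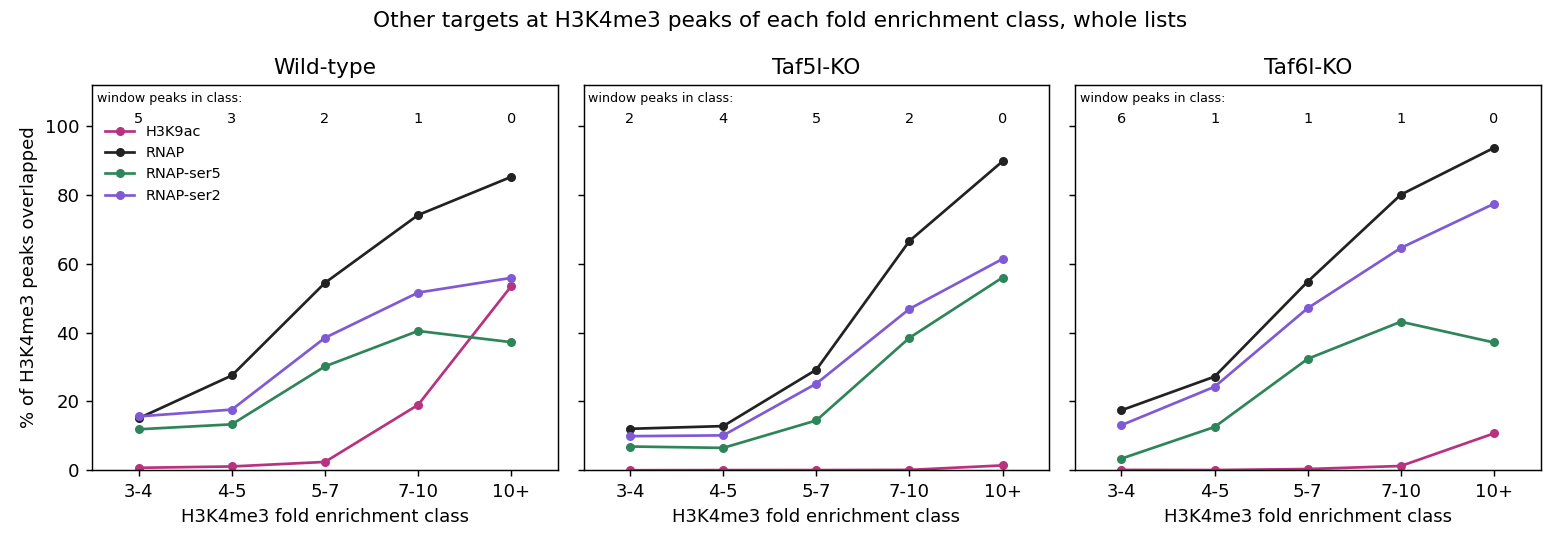
Share of H3K4me3 peaks (%) overlapped by H3K9ac, RNAP, RNAP-ser5 and RNAP-ser2 in 5 classes of H3K4me3 fold enrichment, whole lists, by genotype. Numbers above the lines count the window peaks per class: in wild type 8 of 11 fall below a fold enrichment of 5, where 0.708% and 1.1% overlapped H3K9ac, and none reaches 10.

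RNA polymerase II was listed in 4 of the 6 windows in some form and genotype, and in those of T and Foxa2 in none. In wild-type cells total polymerase (RNAP) was listed at Eomes, Sox17 and Gata6, RNAP-ser5 at Eomes and Sox17, and RNAP-ser2 at Eomes. In Taf5l-KO RNAP was listed at Eomes and Cdx2, RNAP-ser5 in no window, and RNAP-ser2 in the Sox17 window by 33 bp of a 243 bp peak at its edge. In Taf6l-KO RNAP and RNAP-ser2 were listed at Eomes and Cdx2 and RNAP-ser5 in no window. The 14 polymerase peaks had fold enrichments of 2.97 to 6.19 (median 3.87), and 6 of them lay above the median fold enrichment of their own list. A −log10 q of 5 was reached by 1 of them. The polymerase libraries differed in depth after scaling, from 5174150 to 6245652 tags for RNAP, from 3842867 to 6295522 for RNAP-ser2 and from 1702363 to 6245652 for RNAP-ser5, and the part of depth in these presences was not tested.

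Eomes was the only member at which all 3 polymerase forms were listed in the same genotype, wild type. Its main domain in wild-type cells carried RNAP (chromosome 9, 118387277 to 118388397, fold enrichment 4.57), RNAP-ser5 (118387288 to 118387774, 3.83) and RNAP-ser2 (118388598 to 118388733, 3.62). The −log10 q values of these peaks were 3.35, 2.06 and 1.81. The RNAP-ser2 peak was 136 bp long, and no peak of its list was shorter. None of the 3 forms was listed at that domain in Taf5l-KO or Taf6l-KO, although H3K4me3 stayed there at 2615 and 2147 bp. The domain at the right side of the window behaved otherwise. RNAP was listed on it in all 3 genotypes, with the wild-type peak at 118397974 to 118398358 (4.56), the Taf5l-KO peak at 118397589 to 118398335 (4.11) and the Taf6l-KO peak at 118398224 to 118398377 (4.69). In Taf6l-KO an RNAP-ser2 peak lay at nearly the same bases (118398220 to 118398377, 4.36). The wild-type RNAP peak on this domain was the only wild-type polymerase peak of the windows that a knockout peak overlapped. With 50% of it to be covered it was missing in Taf6l-KO, so that 4 of 4 wild-type RNAP peaks were. No whole-list share at 50% is given, so this count has no background. At 1 bp, the other 3 of the 4 wild-type RNAP peaks were missing in each knockout, where 47.5% (Taf5l-KO) and 39.6% (Taf6l-KO) of the whole RNAP list were missing. The 2 wild-type RNAP-ser5 peaks were missing in both (73.8% and 83.5% of the list) and so was the RNAP-ser2 peak (63.4% and 61.3%). With so few peaks these counts do not set the windows apart from the whole lists.

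At Sox17 the wild-type RNAP peak (chromosome 1, 4483558 to 4484362, fold enrichment 3.91, −log10 q 2.28) overlapped the end of the main H3K4me3 peak. The RNAP-ser5 peak of the Sox17 window (4480200 to 4480612, 2.97, −log10 q 1.17) lay outside it, and 1.52% of that list had a lower fold enrichment. At Gata6, RNAP was listed in wild type on the second peak of the pair (chromosome 18, 11054354 to 11054952, 3.83). Neither knockout listed RNAP at Sox17 or Gata6.

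The Cdx2 window showed polymerase only in the knockout lists. RNAP in Taf5l-KO (chromosome 5, 148111015 to 148111484, fold enrichment 3.73, −log10 q 1.48), RNAP in Taf6l-KO (148111273 to 148111427, 6.19, −log10 q 6.04) and RNAP-ser2 in Taf6l-KO (148111027 to 148111409, 3.73) all overlapped the main H3K4me3 peak. Whether that H3K4me3 peak lies at the Cdx2 start was not determined. The wild-type lists held no polymerase peak in that window. The Taf6l-KO RNAP peak had the highest fold enrichment and −log10 q of the 14, with a fold enrichment above that of 68.7% of its list. It was short, at 155 bp, and 8.55% of its list was shorter. Over whole lists 27.3% of the Taf5l-KO RNAP peaks and 33.2% of the Taf6l-KO RNAP peaks, and 56.7% of the Taf6l-KO RNAP-ser2 peaks, had no wild-type counterpart. For RNAP-ser2 in Taf5l-KO, whose single peak was the one at the Sox17 window's edge, that share was 49.8%.

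The polymerase was set against what H3K4me3 domains carry in general. RNAP lay on the widest H3K4me3 domain of 3 of 6 windows in wild type, 0 of 6 in Taf5l-KO and 1 of 6 in Taf6l-KO. Without merging of neighbouring peaks the wild-type count was 2, as Gata6 then dropped out, and the knockout counts stayed. The domain at the right side of Eomes, with RNAP in every genotype, is not the widest of its window and so is not counted. Among all domains in the length range of these widest domains, the shares with RNAP were 59.9%, 64.7% and 57.9%. RNAP-ser5 was on 1, 0 and 0 of the 6 (30.4%, 35.6% and 26.7% of domains) and RNAP-ser2 on 1, 0 and 1 (40.6%, 42.8% and 47%). Of domains of at least 2000 bp, RNAP was on 84.2%, 90.6% and 94.7%, RNAP-ser5 on 43.5%, 64% and 47.9% and RNAP-ser2 on 59.9%, 70.2% and 85.7%, again in the order wild type, Taf5l-KO, Taf6l-KO. In Taf5l-KO the widest Cdx2 domain was the additional 824 bp peak, so the RNAP peak on the main Cdx2 peak of 760 bp is not in that count. H3K4me3 strength mattered to this background as well. RNAP was on 15.1% of wild-type H3K4me3 peaks with fold enrichments of 3 to 4, 27.5% from 4 to 5, 54.5% from 5 to 7 and 74.2% from 7 to 10. Both kinds of case occurred in the knockouts. The main Taf5l-KO peaks of Sox17 (9.93) and Eomes (8.50) carried no RNAP, in a class (7 to 10) where 66.6% of peaks did. In Taf6l-KO the main Eomes peak (7.21) and the Sox17 peak (6.21) carried none, in classes with 80.1% and 54.8%. RNAP was present, on the other hand, on the Taf5l-KO peaks at the right side of Eomes (5.19) and at Cdx2 (6.92), in a class (5 to 7) with 29.2%. It was also on the Taf6l-KO peaks at the right side of Eomes (3.81) and at Cdx2 (4.65), in classes (3 to 4 and 4 to 5) with 17.4% and 27.2%. The remaining Taf5l-KO window peaks from 5 to 7, at T (5.04), Gata6 (6.11) and Foxa2 (5.27), carried no RNAP. Neither did the remaining Taf6l-KO window peaks from 3 to 4, at T, Gata6, Foxa2 and the left edge of Cdx2. In all, the Taf5l-KO class from 5 to 7 held 5 window peaks and the Taf6l-KO class from 3 to 4 held 6.

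No window held a peak of Oct4, Myc, TAF5L-FB, TAF6L-FB or BirA in any genotype or line. Several of these lists are short over the whole genome, so that 0 of 6 windows says little about the genes: TAF5L-FB lines A5 and A6 had 136 and 7 peaks, TAF6L-FB lines 15 and 9 had 1140 and 628, BirA had 24, and Myc had 34 in Taf5l-KO and 23 in Taf6l-KO. Oct4 is a core factor of the ES cell state. Over whole lists such peaks at H3K4me3 were rare too, as 1.15% of wild-type H3K4me3 domains of 1000 to 2000 bp and 2.62% of those of 2000 to 4000 bp overlapped Oct4, and 1.09% and 4.94% overlapped Myc. The nearest TAF6L-FB peak was 61.6 kb from a window (Eomes, line 15), and the nearest TAF5L-FB peak 465.8 kb.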

How the data were processed

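All 26 peak lists were used, 1 per immunoprecipitated library, 21 from 7 targets in 3 genotypes and 5 from tagged or BirA cells. The submitters' processing notes name Bowtie2 2.3.2 and build mm9. The caller was MACS2 2.1.1.20160309 with an input as control, at most 1 tag per position and a q cutoff of 0.05, per the file headers. H3K4me3, H3K9ac and polymerase were called with broad linking (second cutoff 0.1), per the file headers, and the TAF lists with a fragment size set to 300 bp. The deposited lists give each peak's pileup height, a signal after the larger of ChIP and input was scaled down to the smaller, its fold enrichment (a ratio to local background), and −log10 p and −log10 q. Other columns are its length in bp, as deposited. Peak lists depend on depth and threshold, so a peak not listed may be a weak one.

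Only chromosomes 1 to 19, X and Y were read (Python 3.11.15, pandas 2.3.3). Overlap meant at least 1 bp, and covered length was the union of peaks clipped to the window. All 6 genes are named throughout, with the widest H3K4me3 peak, every peak of H3K9ac, Myc, Oct4 and the tagged proteins, and the strongest peak per polymerase form, by rule. Further peaks were named after their values were seen. The members and windows were chosen with earlier results of these data known. No test was made, as groups hold 1 library. Overlap and width steps were tested on simulated lists. Alternatives were a −log10 q of at least 5, 50% overlap, merging or searching within 1000 bp, whole peak lengths, each tagged line left out and, added after the data were seen, windows extended by 5000 bp and backgrounds of matching width or strength.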

Additional observations from a re-analysis of the deposited data

How the results depend on the processing

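No paired analysis was possible because each antibody and genotype has 1 library. At a −log10 q of 5 or more, H3K4me3 was left in 2 windows in wild type and 2 in Taf6l-KO. Its length over the windows was 4935 bp in wild type, 6813 bp in Taf5l-KO and 4143 bp in Taf6l-KO. Only 2 of the 11 wild-type H3K4me3 peaks were left, and 0 of these 2 were missing in either knockout. No whole-list share of missing peaks is given at this threshold. At that threshold RNAP was left in 0, 0 and 1 windows, RNAP-ser5 in 0 wild-type windows and RNAP-ser2 in 0, 0 and 0, and on the widest domains wild-type RNAP, RNAP-ser5 and RNAP-ser2 and Taf6l-KO RNAP-ser2 were each left at 0. Every polymerase presence except RNAP at Cdx2 in Taf6l-KO thus rests on peaks between the authors' cutoff and a −log10 q of 5. With peaks less than 1000 bp apart merged the H3K4me3 length was 13818 bp in wild type and 13781 bp in Taf5l-KO, so the order of these 2 turned, and that in Taf6l-KO stayed at 8717 bp. Whole peak lengths gave 13522 bp in Taf5l-KO. Windows extended by 5000 bp gave 14250 bp in Taf5l-KO and 8877 bp in Taf6l-KO, and the log2 ratio of Taf5l-KO to wild type at Foxa2 turned to 0.19. The RNAP-ser2 count in Taf5l-KO was 0 where 50% of the peak had to lie in the window. With 50% of the wild-type peak covered, 6 H3K4me3 peaks were missing in Taf6l-KO, and with a knockout peak allowed within 1000 bp 0 were missing in Taf5l-KO. The whole-list shares of missing peaks given above are for 1 bp overlap only. H3K9ac, Oct4, Myc and the tagged proteins stayed at 0 windows under every setting run for them, each tagged line left out included. The −log10 q setting gave no count of missing polymerase peaks, as no wild-type polymerase peak of the windows passed it. What depth the H3K9ac and RNAP-ser5 lists would need to show weaker peaks was not tested.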

Other observations

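The sites of Oct4 and TAF6L-FB within 300 kb of a window were examined after their distances had been seen. The strongest lay 62.4 kb to the left of the Eomes window, on chromosome 9, where the Oct4 peak of Taf5l-KO spanned 118315362 to 118315581 (fold enrichment 18.2) and that of Taf6l-KO 118315289 to 118315542 (15.0). The Oct4 list of wild type also held a peak there, and RNAP was listed at the site in all 3 genotypes. H3K4me3 peaks overlapped the Taf6l-KO Oct4 peak in all 3 genotypes as well. A TAF6L-FB line 15 peak lay close by without overlap (118316132 to 118316439, fold enrichment 3.98).

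To the right of the T window, 16.5 kb away, both knockouts listed overlapping Oct4 peaks on chromosome 17, 8656502 to 8656631 for Taf5l-KO (8.30) and 8656485 to 8656627 for Taf6l-KO (9.14). The nearest wild-type Oct4 peak was 992.5 kb from the T window, and no other of the 26 lists had a peak there. Over the whole lists 50.1% of Taf5l-KO and 41.7% of Taf6l-KO Oct4 peaks had no wild-type counterpart. Near Sox17, 297.6 kb to the right, both TAF6L-FB lines had a peak (chromosome 1, 4792602 to 4793004 in line 15, fold enrichment 5.66) that an Oct4 peak of Taf6l-KO and RNAP in all 3 genotypes overlapped. Near Gata6, 178.5 kb to the left, a TAF6L-FB line 15 peak (chromosome 18, 10866179 to 10866531, 4.81) overlapped an Oct4 peak of Taf5l-KO, an H3K4me3 peak of Taf6l-KO and a wild-type RNAP peak. None of these sites was tied to the genes by the data used here.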
